A study of Mus musculus with 4 samples.

Results

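The genes described here are 9 that write, read or erase DNA methylation: *Dnmt1*, *Dnmt3a*, *Dnmt3b*, *Uhrf1*, *Uhrf2*, *Tet1*, *Tet2*, *Tet3* and *Mbd2*. They were chosen by their known roles and matched by gene symbol, and all 9 were found among the 55367 symbols of the count tables. The libraries hold RNA of CD4+ T cells sorted from the spleens of C57BL/6 mice, and 2 of them carry the label WT while the other 2 are from a *Satb1* conditional knockout (cKO). In the cKO mice, *Satb1* F/F alleles are deleted by Cre expressed from *Thpok*, which acts in cells already committed to the CD4 lineage, so conventional T cells and regulatory T (Treg) cells were both targeted and both present in the sample. The WT libraries carry no further allele in their labels, no treatment is named, and the study describes its mice as young adults of mixed sex without giving the age or sex behind each library. SATB1 folds chromatin in T cell nuclei, and the comparison asks which transcripts differ when it is deleted after CD4 commitment.

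In mammals a methyl group is placed on cytosines that precede a guanine (CpG). DNMT3A and DNMT3B place new marks, and DNMT1 copies existing marks onto the new strand after replication, guided by UHRF1, which binds hemimethylated CpGs at the fork. TET enzymes oxidise the methyl group and so open the way to its removal, and MBD2 binds methylated DNA and brings the NuRD repressor complex. In T cells this machinery is best known at *Foxp3*, the gene that defines Treg cells, where an intronic enhancer must lose its methylation for stable expression.

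The libraries held between 4495902 and 6555699 gene counts, and the defining markers of CD4 T cells (*Cd3d*, *Cd3e*, *Cd3g*, *Cd4*, *Trac*, *Cd28*, *Cd5*, *Zbtb7b*) were above 0 in all 4. Of these 8 markers 1 (*Zbtb7b*) rose in cKO (log2 fold change 0.66, edgeR adjusted p = 0.012), where 2.35% of all tested genes rose. Both cKO libraries were above both WT libraries for 5 of the 8 and below them for 0, against 24.8% and 25.4% of all tested genes. For *Satb1* itself, WT 1 gave 5677 counts, WT 2 gave 4390, cKO 1 gave 4958 and cKO 2 gave 3986 (log2 fold change -0.05, edgeR adjusted p = 0.877), so the gene count does not check the genotype labels. *Xist* gave 5447 and 4235 counts under the WT label against 9 and 6 under the cKO label, and *Ddx3y* gave 0 and 0 against 525 and 597. Sex and genotype label therefore cannot be told apart in any value below, although none of the 9 genes lies on a sex chromosome. The labels do not say how the mice were paired, and p-values measure the spread between these libraries. Expression is given as CPM, the counts of a gene for each 1000000 gene counts of its library, after TMM scaling of the totals.

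*Uhrf1* fell in the libraries labelled cKO, below its level in either WT library, and of the 9 genes it alone passed the test. It had 274 counts in WT 1 and 170 in WT 2, against 77 in cKO 1 and 114 in cKO 2. These are 41.7 and 37.9 CPM in the WT libraries against 14.6 and 24.1 CPM in the cKO libraries. The genotypes did not overlap, with a mean of 39.8 ± 2.69 CPM (SD, n = 2) in WT and 19.4 ± 6.73 CPM (SD, n = 2) in cKO. This is a log2 fold change of -1.05 (SE 0.22), which passed at an adjusted p = 0.0308 by the quasi-likelihood test of edgeR. The fold of cKO over WT was 0.482, with a 95% interval from 0.344 to 0.677. The cKO libraries also differed from each other beyond counting error, since the Poisson interval was 11.5 to 18.3 CPM in cKO 1 and 19.9 to 29.0 CPM in cKO 2. Without WT 2 the log2 fold change was -1.11 and no longer passed, with an edgeR adjusted p = 0.0872. It was -0.73 without cKO 1 (adjusted p = 0.0151) and -1.45 without cKO 2 (adjusted p = 1.45e-05).

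*Uhrf1* (GRCm38 chromosome 17, 56303321 to 56323486, plus strand) lies 4.47 Mb from *Satb1* on the same chromosome. No exon of another gene overlaps its exons on either strand. Within 0.5 Mb on each side, 30 further genes were tested, and edgeR called 0 of them, where 4.30% of all 12403 tested genes were called. Their median log2 fold change was -0.03, over a range from -0.43 to 1.63.

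The start regions of *Uhrf1* are shown because it is the gene that passed the test. *Dnmt1* was added because the proteins act together at the fork. Of its start regions, only the region that matched the E2F words given below is shown. Those matches were therefore used to pick it. RefSeq (GRCm38.p6) lists windows of 300 bases, 250 before a start and 50 after it, for 8 of the 9 genes, 13 windows in all. *Mbd2* was the gene without a match. Capitals mark matches, on either strand, to 4 words bound by E2F factors (TTTCCCGC, TTTCGCGC, TTTGCCGC and TTTGGCGC) and to the CCAAT box. E2F factors switch on genes of DNA replication.
Uhrf1, chr17:56303087-56303386, plus strand: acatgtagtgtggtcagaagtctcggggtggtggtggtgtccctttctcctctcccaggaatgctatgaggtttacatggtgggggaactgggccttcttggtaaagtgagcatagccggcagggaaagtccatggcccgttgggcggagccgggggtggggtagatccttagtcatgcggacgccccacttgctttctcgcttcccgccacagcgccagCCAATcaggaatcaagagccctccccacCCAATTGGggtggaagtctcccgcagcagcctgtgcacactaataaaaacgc
Uhrf1, chr17:56304063-56304362, plus strand: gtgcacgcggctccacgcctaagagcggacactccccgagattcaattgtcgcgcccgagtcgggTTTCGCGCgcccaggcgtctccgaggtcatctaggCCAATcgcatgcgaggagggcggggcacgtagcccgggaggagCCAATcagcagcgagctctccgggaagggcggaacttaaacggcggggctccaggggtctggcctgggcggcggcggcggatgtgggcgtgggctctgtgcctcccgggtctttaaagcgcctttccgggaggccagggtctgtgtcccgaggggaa
Dnmt1, chr9:20952574-20952873, minus strand: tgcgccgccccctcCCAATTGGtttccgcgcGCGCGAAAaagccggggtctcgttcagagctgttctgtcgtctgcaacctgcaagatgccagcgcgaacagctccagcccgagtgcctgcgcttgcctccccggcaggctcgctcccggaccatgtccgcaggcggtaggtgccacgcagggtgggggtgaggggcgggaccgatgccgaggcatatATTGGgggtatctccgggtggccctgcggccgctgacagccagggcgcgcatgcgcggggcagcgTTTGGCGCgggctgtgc

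The second *Uhrf1* window held the E2F word TTTCGCGC 185 bases before the start, with a pair of CCAAT boxes closer to it. The *Dnmt1* window shown, picked for its E2F words, held 2 of them, and no other window of the 9 genes held any. The words do not overlap the CCAAT boxes in these windows, while the paired letters CCAATTGG count as a box on each strand. An E2F word was present in 2 of 13 windows of the 9 genes and in 2.26% of 32851 windows of all genes, and a CCAAT box in 5 of 13 and in 37.4%. The second *Uhrf1* window held 33 CpGs and so did the *Dnmt1* window shown, against a median of 7 over all windows. The *Dnmt1* windows not shown held 2 and 12 CpGs. The counts per window ran from 2 to 57 CpGs among the 9 genes, with the highest number at *Tet2*. A match is a run of letters and says nothing on binding in these cells.

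**Figure D1:**
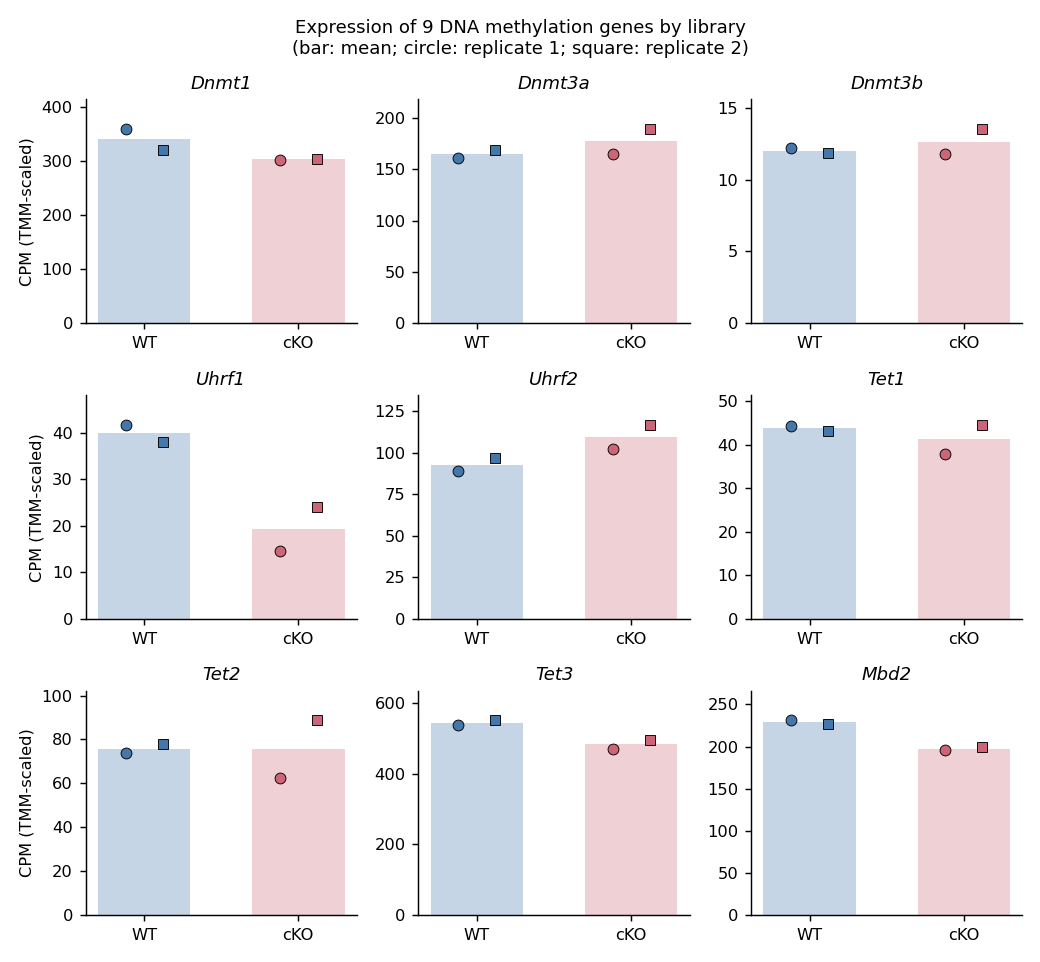
Expression of each gene in CPM (vertical axes, each from 0) in the 2 WT and 2 cKO libraries. Bars are means, circles are replicate 1 and squares are replicate 2. *Uhrf1* has both cKO libraries (14.6 and 24.1 CPM) well below both WT libraries (41.7 and 37.9 CPM), while the other genes differ by far less.

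*Uhrf2* (chromosome 19, 30030513 to 30093722, plus strand), a paralogue of *Uhrf1* that also binds modified CpGs but does not replace it in copying methylation, differed between the genotypes in the other direction. Its level was 88.9 CPM in WT 1 and 96.8 CPM in WT 2, against 102 CPM in cKO 1 and 117 CPM in cKO 2. The genotypes did not overlap, but the log2 fold change of 0.24 (SE 0.11) did not pass the test, with an edgeR adjusted p = 0.305. The fold of cKO over WT was 1.18, with a 95% interval from 0.985 to 1.42. Per kb of merged exons, *Uhrf1* made up 48.6% and 44.1% of the summed *Uhrf* level in the WT libraries. In cKO 1 and cKO 2 it made up 22.4% and 29.4%. By coding length these shares were lower, at 32.5% and 28.7% in WT and 12.8% and 17.5% in cKO, in the order of the merged exon values.

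Among the writers, *Dnmt1* (chromosome 9, 20907209 to 20959888, minus strand), the maintenance enzyme, had 359 CPM in WT 1 and 320 CPM in WT 2, against 302 and 303 CPM in cKO 1 and cKO 2. Both cKO libraries were below both WT libraries by a small margin, and the WT libraries differed from each other more than the lower of them did from the cKO libraries. *Dnmt1* did not pass the test (log2 fold change -0.17, SE 0.10, edgeR adjusted p = 0.416), and its fold lay between 0.759 and 1.04 at 95%. The *Uhrf1* to *Dnmt1* ratio per kb was 0.201 in WT 1 and 0.205 in WT 2 against 0.0837 in cKO 1 and 0.138 in cKO 2, lower in both cKO libraries than in both WT libraries.

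*Dnmt3a* (chromosome 12, 3806007 to 3914443, plus strand; 133 bases of exon shared with the antisense gene *Dnmt3aos*), the main de novo enzyme of mature T cells, had 161 and 169 CPM in WT and 165 and 190 CPM in cKO, and the genotypes overlapped. Its log2 fold change was 0.10 (SE 0.11, edgeR adjusted p = 0.651), with a fold interval from 0.911 to 1.27. *Dnmt3b* (chromosome 2, 153649450 to 153687730, plus strand), a de novo enzyme best known from embryonic cells, had the lowest counts of the 9 genes, with 80 and 53 counts in WT and 62 and 64 in cKO. That is 12.2 and 11.8 CPM against 11.8 and 13.6 CPM, with overlap between the genotypes. Its log2 fold change was 0.07 (SE 0.21, edgeR adjusted p = 0.896), and at this depth the fold interval is wide, from 0.750 to 1.47. *Dnmt3l*, a cofactor of de novo methylation in germ cells, had 0 counts in all 4 libraries.

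*Dnmt1* was the main transcript of its family per kb of merged exons, at 80.1% and 77.7% in WT and 77.0% and 74.5% in cKO. *Dnmt3a* followed with 16.0% to 20.7% and *Dnmt3b* with 3.92% to 4.82% over the 4 libraries. The size of the lead of *Dnmt1* over *Dnmt3a* depends on the length used. GENCODE merges *Dnmt3a* to 16642 bases of exon, of which 2724 are coding, and by coding length *Dnmt1* held 53.6% and 49.8% in WT and 48.8% and 45.4% in cKO. *Dnmt1* was then still ahead in WT 1, WT 2 and cKO 1, and in cKO 2 *Dnmt3a* was ahead with 50.8%.

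**Figure D2:**
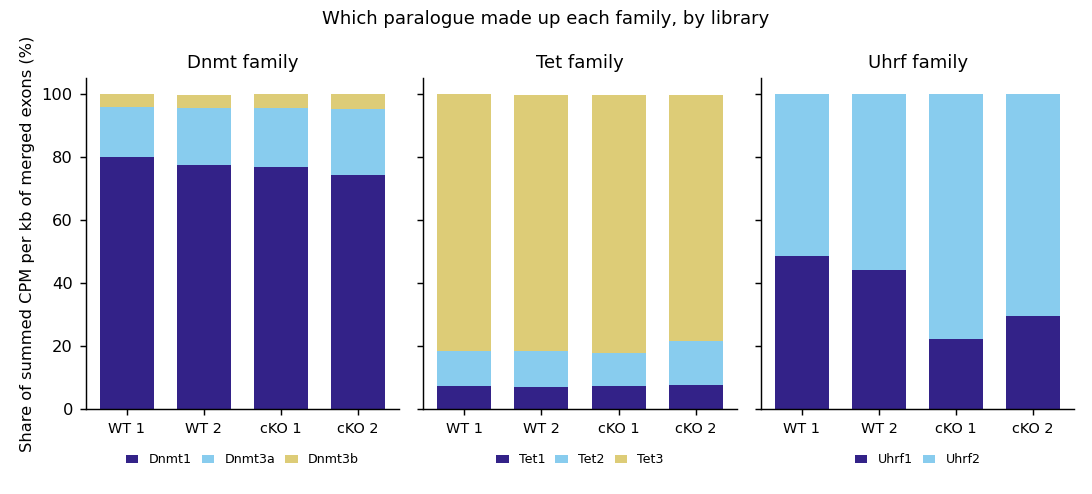
Share of each paralogue (vertical axis, %) in the summed CPM per kb of merged exons of its family, in each of the 4 libraries. *Tet3* and *Dnmt1* lead their families in every library, and the *Uhrf1* share is 48.6% and 44.1% in WT against 22.4% and 29.4% in cKO.

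The erasers were led by *Tet3* (chromosome 6, 83362373 to 83459084, minus strand), which had 538 and 550 CPM in WT and 471 and 494 CPM in cKO. The genotypes did not overlap for *Tet3*, yet its log2 fold change of -0.17 (SE 0.10) did not pass, with an edgeR adjusted p = 0.395 and a fold interval from 0.758 to 1.04. *Tet2* (chromosome 3, 133463679 to 133545139, minus strand), the TET gene most often mutated in blood cancers, had 73.9 and 77.9 CPM in WT against 62.2 and 88.7 CPM in cKO. The cKO libraries lay on either side of the WT pair, and the log2 fold change was -0.01 (SE 0.16, edgeR adjusted p = 0.987). *Tet1* (chromosome 10, 62804570 to 62908996, minus strand), known from embryonic stem cells, had 44.3 and 43.3 CPM in WT against 38.0 and 44.7 CPM in cKO, again with overlap. Its log2 fold change was -0.09 (SE 0.14, edgeR adjusted p = 0.787). The fold intervals were 0.770 to 1.28 for *Tet2* and 0.760 to 1.17 for *Tet1*.

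*Tet3* made up 78.4% to 82.1% of the *Tet* level per kb of merged exons over the 4 libraries, *Tet2* 10.7% to 13.9% and *Tet1* 6.94% to 7.65%. The order *Tet3*, *Tet2*, *Tet1* held in each library. *Foxp3*, whose enhancer depends on TET2 and TET3 for its demethylation, had 141 and 120 CPM in WT and 404 and 545 CPM in cKO, a log2 fold change of 1.86 (edgeR adjusted p = 0.000447). No TET gene was called in either direction beside it. *Foxp3* lies on chromosome X, where sex and genotype label cannot be told apart. Its exons share 856 bases with genes on the opposite strand and 853 with *Flicr* on the same strand. In bulk libraries, a different number of cells of a type (fewer or more) and a different amount of RNA per cell (less or more) cannot be told apart, for *Foxp3* as for the methylation genes.

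*Mbd2* (chromosome 18, 70568189 to 70626131, plus strand), the reader, had 231 and 226 CPM in WT and 195 and 200 CPM in cKO, with no overlap and little spread within a genotype. The mean was 229 ± 3.41 CPM (SD, n = 2) in WT and 198 ± 2.94 CPM (SD, n = 2) in cKO. The log2 fold change was -0.21 (SE 0.09), with an edgeR adjusted p = 0.258, so *Mbd2* did not pass the test. Before adjustment its p was under 0.05, as it was for 19.1% of all tested genes.

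**Figure D3:**
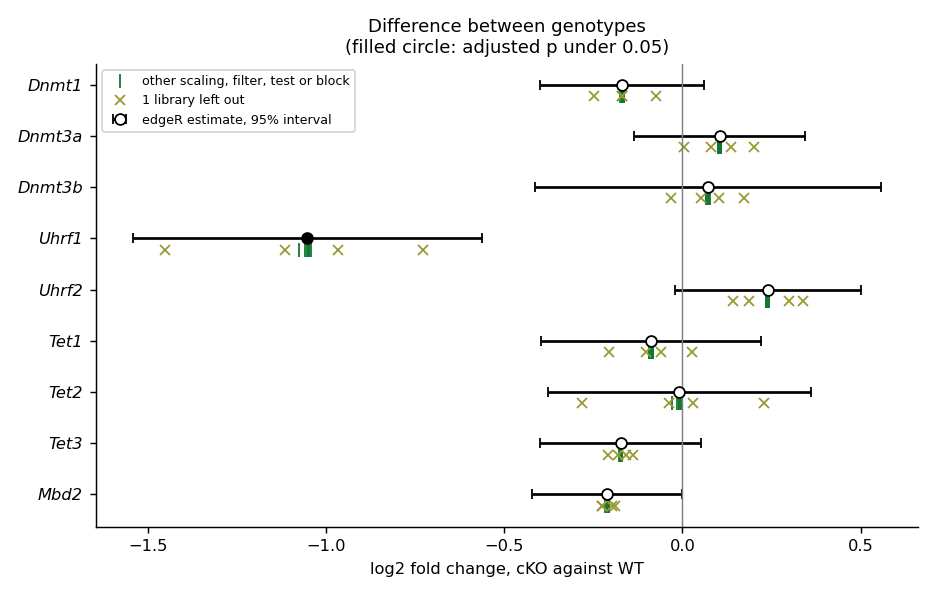
Log2 fold change of cKO against WT for the 9 genes (horizontal axis) with 95% intervals, filled where the edgeR adjusted p was under 0.05. Ticks give other scalings, filters, tests and the replicate block, and crosses give fits with 1 library left out. *Uhrf1* stands at -1.05, with values from -1.45 to -0.73 when a library is left out, and the other 8 genes lie between -0.21 and 0.24.

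In all, 1 of the 9 genes was called lower and 0 higher, where 4.30% of 12403 tested genes were called, 1.95% lower and 2.35% higher. All 9 passed the low-count filter. The estimate was below 0 for 6 of the 9, against 50.2% of all tested genes. Their median log2 fold change was -0.09, and that of all tested genes was -0.0016. The genotypes did not overlap for 5 of the 9 (*Dnmt1*, *Uhrf1*, *Tet3* and *Mbd2* lower in cKO and *Uhrf2* higher), against 50.3% of all tested genes (25.4% lower and 24.8% higher). *Uhrf1* ranked at 376 by p-value, and 302 genes, or 2.43%, had a log2 fold change at or below its own.

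Compared with each other per kb of merged exons, *Mbd2* had the highest mean level over the 4 libraries (66.3 CPM per kb), followed by *Dnmt1* (43.5) and *Tet3* (30.8), and the ranges of these genes did not overlap. *Uhrf2* (11.8 CPM per kb), *Dnmt3a* (10.3) and *Uhrf1* (6.95) came next. The ranges of *Uhrf2* and *Dnmt3a* overlapped, as did those of *Dnmt3a* and *Uhrf1*, and those of *Uhrf1* and *Tet2* (4.48). *Tet1* (2.75 CPM per kb) and *Dnmt3b* (2.41) overlapped at the low end. By coding length *Tet3*, with a mean of 94.9 CPM per kb, came before *Dnmt1* with 66.1, and *Dnmt3a* (62.9) before *Uhrf2* (42.0). *Uhrf1* was ahead of *Tet2* in WT, with means of 17.0 and 13.2 CPM per coding kb, and behind it in cKO, with 8.26 and 13.1.

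*Uhrf1* and *Dnmt1* are used at replication forks, so 22 genes of replicating cells were measured in the same libraries. Of these, 5 fell and 0 rose in the cKO libraries, against 1.95% and 2.35% of all tested genes. The 5 were *Cdc6* (log2 fold change -2.24, edgeR adjusted p = 0.0195), which loads the replicative helicase, *Ccnb2* (-1.82, adjusted p = 0.0232) and *Ccna2* (-1.39, adjusted p = 0.0364), cyclins of mitosis and S phase, *Birc5* (-1.59, adjusted p = 0.0340), which is needed for chromosome segregation, and *Rrm2* (-1.36, adjusted p = 0.0195), which makes deoxynucleotides. *Ccna2* shares 510 bases of exon with *Exosc9* on the opposite strand. Both cKO libraries were below both WT libraries for 18 of the 22 genes and above them for 0, where 25.4% of all tested genes were below. *Mki67*, the usual marker of cycling cells, had 162 and 197 CPM in WT and 35.1 and 97.8 CPM in cKO but did not pass, with an edgeR adjusted p = 0.0602. The median log2 fold change of the list was -0.67.

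By mean CPM over all 4 libraries, the most abundant markers of the list were *Gins2* (log2 fold change -0.33, edgeR adjusted p = 0.251), *Mcm6* (0.09, adjusted p = 0.708) and *Mcm4* (-0.13, adjusted p = 0.549), all parts of the replicative helicase, and none of them passed. In the WT libraries alone, *Mki67* had the highest mean, at 179 CPM. *Gins2* shares 2758 bases with *Gse1* on the opposite strand. The fold change of *Uhrf1* was within the range of the list, with 10 markers lower and 12 higher. The number of markers called depended on the libraries used: without WT 2 it was 1 (*Cdc6*) and without cKO 2 it was 13, while without WT 1 and without cKO 1 it was 8.

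Across libraries, the summed level of the 22 markers was 1400 CPM in WT 1 and 1370 CPM in WT 2, against 868 CPM in cKO 1 and 1040 CPM in cKO 2. *Uhrf1* had the same order of libraries, with WT 1 highest and cKO 1 lowest. As a percentage of the summed markers, *Uhrf1* was 2.98 and 2.76 in WT and 1.68 and 2.31 in cKO. Relative to *Mki67* it was 0.258 and 0.193 in WT and 0.416 and 0.247 in cKO, and the ratio of cKO 2 lay within the WT range. The difference between the fold changes of these genes was not tested. Whether fewer dividing cells were part of the lower *Uhrf1* count was not tested. In 7 of the 18 marker genes matched in RefSeq, a start window held an E2F word of the kind seen at *Uhrf1* and *Dnmt1*. By window this was 7 of 19, against 2.26% of 32851 windows of all genes. The markers were chosen as genes of replicating cells, and control by E2F was not tested.

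**Figure D4:**
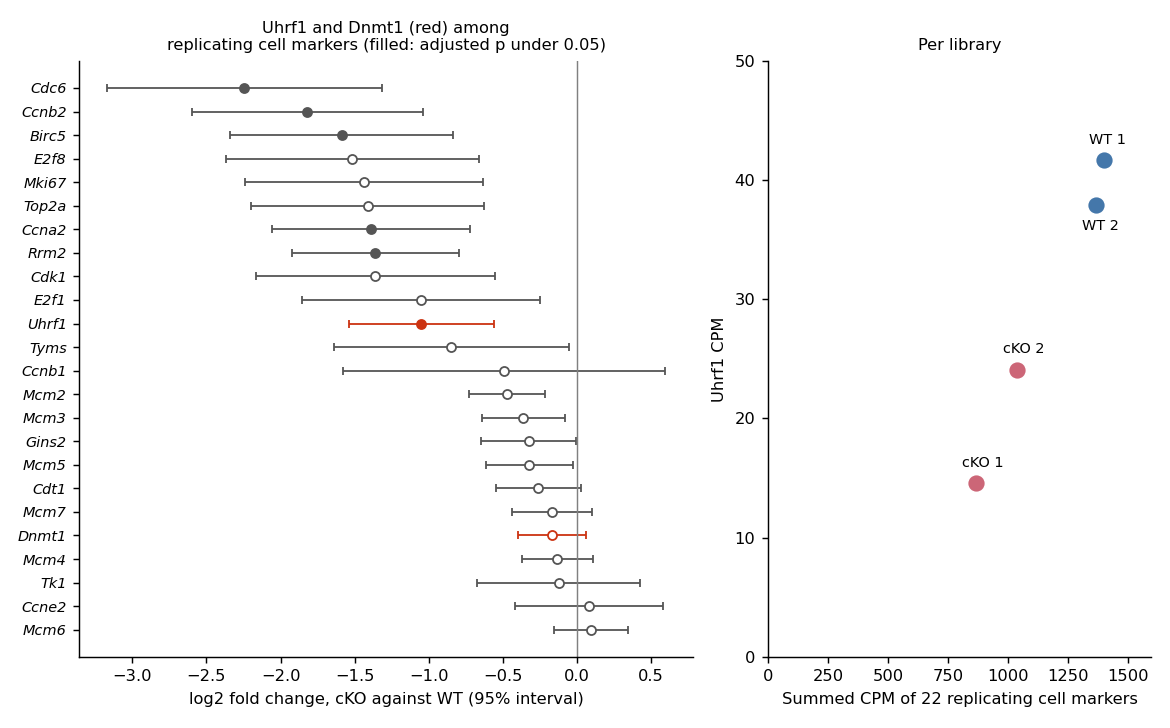
Left, log2 fold change of cKO against WT with 95% intervals for 22 replicating cell markers (grey) and for *Uhrf1* and *Dnmt1* (red), filled where the edgeR adjusted p was under 0.05. Right, *Uhrf1* CPM against the summed CPM of the 22 markers in each library. *Uhrf1* sits in the middle of the markers, at -1.05, and cKO 1 is lowest on both axes.

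Markers of other cell types were also present, at levels that differed by type and by library. As background for the calls in each list, 2.35% of all tested genes rose and 1.95% fell. The summed level of 8 B cell markers was 14.0 and 15.2 CPM in WT and 57.3 and 23.5 CPM in cKO, and that of 8 myeloid markers was 32.9 and 39.7 CPM against 103 and 62.2 CPM. Both lists were highest in cKO 1, the library in which *Uhrf1* was lowest. Of the B cell markers 3 passed the low-count filter and 1 (*Pax5*) rose, while *Cd79b* was lower in cKO 2 (4.87 CPM) than in either WT library. *Cd22* had 4.57 and 3.79 CPM in WT and 9.11 and 10.58 CPM in cKO but did not pass (edgeR adjusted p = 0.0529). Of the 8 myeloid markers 4 rose (*Lyz2*, *Cybb*, *S100a9* and *Ltf*) and 0 fell, and *Itgam* and *Cd68* had log2 fold changes of -0.85 and -0.29 that did not pass in edgeR. Of the B cell markers, *Ebf1* was at 0 in cKO 2, and 3 of the myeloid markers (*S100a8*, *S100a9* and *Ltf*) were at 0 in WT 1. In WT 2, *S100a9* and *Ltf* had 1 count each. The 4 erythroid markers summed to 61.1 and 234 CPM in WT and 8.73 and 121 CPM in cKO, so the genotypes overlapped, and 0 of them were called. Of the 2 CD8 T cell markers, *Cd8b1* fell (log2 fold change -0.91, edgeR adjusted p = 0.0201). *Cd8a* overlapped between the genotypes, at 5.33 and 6.47 CPM in WT and 6.83 and 4.23 CPM in cKO (-0.07, adjusted p = 0.941). The 3 NK cell markers summed to 7.2 and 4.7 CPM in WT and 3.8 and 1.3 CPM in cKO. Of these markers 2 passed the low-count filter and 0 were called. The 6 Treg markers summed to 456 and 382 CPM in WT and 831 and 1040 CPM in cKO, a sum that includes *Foxp3*, and 4 of them rose (*Foxp3*, *Ctla4*, *Tnfrsf18* and *Nrp1*). The part of these cells in the values of the methylation genes was not tested.

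A wider set of 64 genes that work with the 9 was listed by role. Of the 59 that passed the low-count filter, 3 fell and 0 rose, against 1.95% and 2.35% of all tested genes (4.30% in either direction), so calls were about as frequent as among all genes. Their median log2 fold change was -0.05. The genotypes did not overlap for 34 of the 59, against 50.3% of all tested genes. The count of calls moved with the libraries used: it was 1 without WT 1, 0 without WT 2, 9 without cKO 1 and 6 without cKO 2.

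The cofactors of the writers had the lowest median, at -0.24, with 1 of 10 tested genes called. That gene was *Cdca7l*, a paralogue of the HELLS activator *Cdca7*, at 48.0 and 41.9 CPM in WT and 29.8 and 27.3 CPM in cKO (log2 fold change -0.66, edgeR adjusted p = 0.0389). It shares 731 bases of exon with *Dnah11* and *Gm20613* on the opposite strand. *Cdca7l* lost its call in DESeq2 (adjusted p = 0.1095), and in edgeR without WT 1 (adjusted p = 0.221) and without WT 2 (adjusted p = 0.134). *Pcna*, the sliding clamp that recruits DNMT1, had 110 and 108 CPM in WT and 86.1 and 86.8 CPM in cKO but did not pass (-0.33, adjusted p = 0.116). *Hells*, a remodeller needed for methylation of repeats, ran from 9.87 CPM in cKO 1 to 24.98 CPM in WT 1 with overlap between the genotypes. The most abundant of the group, *Usp7*, which deubiquitinates UHRF1 and DNMT1, had a log2 fold change of 0.03 (adjusted p = 0.888), and *Trim28* and *Ehmt2* had -0.14 and 0.19 without passing.

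Of 11 tested genes of base excision, which completes demethylation after TET oxidation, *Apex1*, the nuclease that cuts at abasic sites, fell. It had 47.5 and 50.6 CPM in WT and 33.39 and 22.01 CPM in cKO (log2 fold change -0.82, edgeR adjusted p = 0.0494). Of its 1422 bases of exon, 877 are shared with *Pip4p1* on the opposite strand, so its counts are uncertain. *Apex1* lost its call without WT 2 (edgeR adjusted p = 0.231). *Tdg*, the glycosylase that removes the oxidised bases made by TET enzymes, had 19.2 and 17.4 CPM in WT against 11.2 and 11.6 CPM in cKO, without overlap, and did not pass (-0.69, adjusted p = 0.0955), though it did with no low-count filter and in the likelihood ratio test. *Parp1*, *Lig3* and *Xrcc1*, the most abundant of the group, had -0.15, -0.08 and 0.01.

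Of the 11 NuRD subunits that MBD2 or MBD3 can bring to DNA, *Rbbp7*, a histone-binding subunit, fell from 188 and 171 CPM to 134 and 129 CPM (log2 fold change -0.45, edgeR adjusted p = 0.0435). *Rbbp7* lies on chromosome X, where sex and genotype label cannot be told apart, and shares 174 bases with *Txlng* on the opposite strand. *Rbbp7* lost its call in DESeq2 (adjusted p = 0.0760), and in edgeR without WT 1 (adjusted p = 0.372) and without WT 2 (adjusted p = 0.210). Its paralogue *Rbbp4* had -0.07 (adjusted p = 0.768), and the abundant subunits *Chd3*, *Chd4* and *Mta2* had 0.01, 0.14 and 0.05.

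No call was made among the 9 further methyl-CpG readers, whose log2 fold changes ran from -0.08 to 0.36, with *Zbtb4* at 0.02 and *Mbd3* at -0.0049. None was made by edgeR among the 8 tested TET partners and CXXC proteins, where *Ogt*, *Hcfc1* and *Kdm2a* had 0.07, -0.08 and 0.17, nor among the 10 genes of methyl donor supply. In that last group *Mat2a*, which makes S-adenosylmethionine, was at 217 and 192 CPM in WT and 263 and 269 CPM in cKO, with no overlap and a log2 fold change of 0.38 that did not pass (edgeR adjusted p = 0.0765). *Ahcyl1* and *Shmt2* had 0.0004 and -0.36. *Ogt* and *Hcfc1* lie on chromosome X, as *Rbbp7* does. Other edgeR fits did call genes of these 3 groups: *Mat2a* and *Idh2* with no low-count filter, *Mat2a* in the likelihood ratio test, and *Mat2a*, *Idh2* and *Shmt2* under the replicate block. Without cKO 1 the genes gained included *Mat2a*, *Idh2*, *Shmt2*, *Mthfd1* and *Zbtb38*, and without cKO 2 *Mat2a* was gained.

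**Figure D5:**
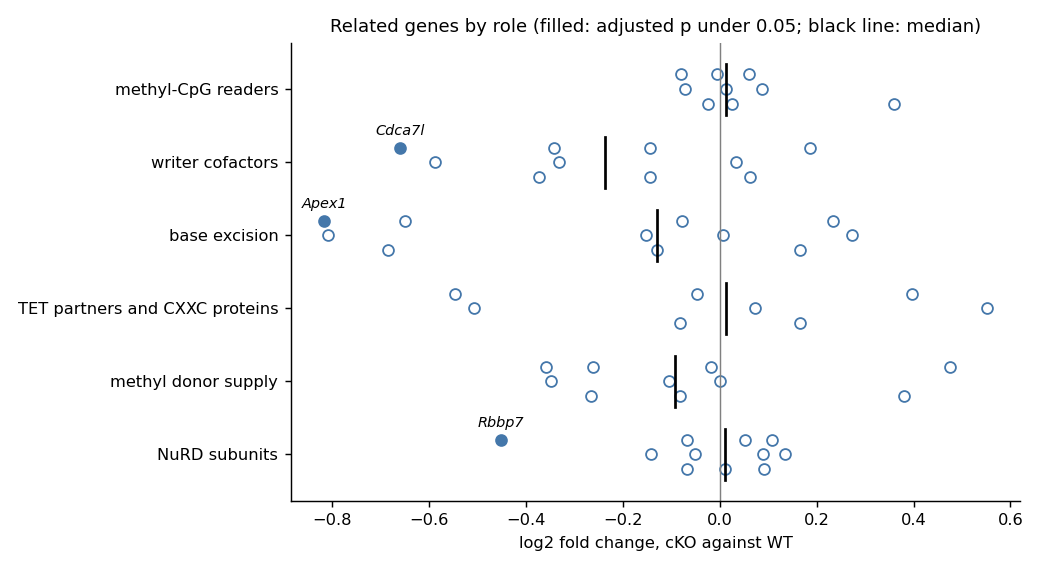
Log2 fold change of cKO against WT (horizontal axis) for 59 tested genes that work with the 9, in rows by role. Filled circles had an edgeR adjusted p under 0.05 and black lines are medians. The 3 called genes, *Cdca7l*, *Apex1* and *Rbbp7*, are all lower in cKO, and each lost its call when WT 2 was left out.

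The genes most like *Uhrf1* over the 4 libraries were sought among 9708 tested genes of at least 3 on the log2 CPM scale. By root mean square difference of centred log2 CPM, the closest were *Lgals1* (0.0326), *Myo1f* (0.0373) and *Cxcr6* (0.0628). *Lgals1*, which encodes galectin-1, had 144 and 139 CPM in WT and 52.7 and 86.4 CPM in cKO. *Cxcr6*, a chemokine receptor of activated and memory T cells, had 18.1 and 16.7 CPM against 6.83 and 11.4 CPM. For *Mbd2*, the member next by p-value, the closest were *Taco1* (0.0084), *Plin3* (0.0086) and *Tram1* (0.0114). With 4 libraries such likeness is a description of these samples.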

How the data were processed

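RNA of sorted splenic CD4+ T cells was sequenced in 4 libraries, 2 for each genotype label. The authors aligned 50 bp reads to mm10 with HISAT2 2.1.0 and counted reads with HTSeq (0.11.1 in the submitters' processing notes), and the deposited values are raw counts per gene symbol. The annotation and strand setting are not given in the sources used here. HTSeq summary lines were kept out of library sizes; of the reads that aligned to a single place, 59.4% to 64.5% fell outside features.

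Genes were kept by filterByExpr (12403 genes), scaled by TMM (factors 0.981 to 1.02) and tested with the edgeR 4.0.16 quasi-likelihood F test in R 4.3.3, two-sided, with no covariate. P-values were adjusted by Benjamini-Hochberg over all tested genes, with 0.05 as the limit for a call. SEs are the log2 fold change divided by the root of F. Intervals (95%) cover counting error and spread between these libraries; Poisson intervals cover counting error alone. An exact permutation test of 2 against 2 cannot give a p under 0.333. Positions and lengths are from GENCODE M21 (GRCm38, also called mm10). DESeq2 1.42.0 was an alternative, and plots used matplotlib 3.10.9 in Python 3.11.15.

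On simulated counts with 200 changed genes, the procedure recovered 28.0% of 1.5-fold, 76.0% of 2-fold and 97.0% of 4-fold changes, with 12175 to 12205 genes tested. Of the calls made, 19 of 75 at 1.5-fold, 6 of 158 at 2-fold and 11 of 205 at 4-fold were false. The changed genes were drawn above a minimum mean count, and each gene had the same spread in both genotypes. In the data the cKO libraries differed more from each other than the WT libraries did. Their chi-square per degree of freedom was 6.68, against 2.83 in WT, so recovery in the data can be lower.

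The members and lists were chosen with earlier results of these data known. Named were the 9 genes, *Satb1*, *Foxp3* and *Xist*, every called gene of the 2 lists, the 3 most abundant of each role (1 of which is not reported here), and the 3 genes most like the 2 members of smallest p. Other list genes were named after their values were seen. Alternatives varied scaling, filter, test, threshold, block, length and the inclusion of each library.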

Additional observations from a re-analysis of the deposited data

How the results depend on the processing

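*Uhrf1* kept its direction in 11 of 11 alternatives and its call in 10, with adjusted p from 3.70e-07 to 0.0872; it was -1.11 and not called without WT 2. At an adjusted p under 0.01, 0 members, 0 related genes, 0 replicating markers and 153 of all genes were called in edgeR. The other members were called in no alternative. When a library was left out (the lone library was assumed to vary like the other genotype), log2 fold changes ran from -0.25 to -0.07 for *Dnmt1*, 0.00 to 0.20 for *Dnmt3a*, -0.03 to 0.17 for *Dnmt3b*, -1.45 to -0.73 for *Uhrf1*, 0.14 to 0.34 for *Uhrf2*, -0.21 to 0.03 for *Tet1*, -0.28 to 0.23 for *Tet2*, -0.21 to -0.14 for *Tet3* and -0.23 to -0.19 for *Mbd2*. Signs turned for *Tet2* without WT 2 (0.03) and without cKO 1 (0.23), for *Tet1* without cKO 1 (0.026) and for *Dnmt3b* without cKO 2 (-0.031). The cause was not tested.

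All genes called, 533 in the edgeR fit, numbered 1367 with no low-count filter, 1096 in the likelihood ratio test, and 174 (without WT 2) to 1583 (without cKO 2) when a library was left out. Members called were then 0 to 1. Related genes called, 3 in the edgeR fit, numbered 6 with no filter, 5 in the likelihood ratio test, 1 in DESeq2, and 0 (without WT 2) to 9 (without cKO 1). Replicating markers called, 5 in the edgeR fit, numbered 12 with no filter, 11 in the likelihood ratio test, and 1 (without WT 2) to 13 (without cKO 2). The called markers were all lower. These counts of related genes and markers were chosen as results after seeing the data. By coding length, mean family shares were 51.7% (WT) and 47.1% (cKO) for *Dnmt1*, 83.2% (WT) for *Tet3*, and 30.6% (WT) and 15.2% (cKO) for *Uhrf1*.

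The labels do not say whether libraries that share a replicate number belong together, and they were not taken as pairs. Across genes the correlation between deviations of such libraries was 0.0643, which does not settle whether they shared a batch. Under a replicate block, 1165 genes, 6 related genes and 11 markers were called, and *Uhrf1* was -1.075 with an adjusted p of 0.000590. With simulated recovery of 28.0% at 1.5-fold, a difference under 1.5-fold would mostly be missed.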
